A study of Arabidopsis thaliana with 24 samples.

Results

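The age comparison of wild-type shoots at low nitrate took 6 of the 24 RNAseq libraries of the series, those of wild-type plants fed 0.2 mM KNO3 and harvested at 16 days (3 plants) or at 25 days (3 plants). They were chosen by their labels alone, which give the genotype, the KNO3 supply and the day, and no measured value entered the choice. The wild type was the Columbia-0 ecotype of *Arabidopsis thaliana*. All plants stood in hydroponic culture under days and nights of equal length, with KCl added to the low-nitrate buffer in place of the missing potassium, and each library was made from the polyadenylated RNA of the whole shoot of 1 plant. The labels count the days from germination in the titles and from sowing elsewhere, with the same numbers. The 6 wild-type libraries at 2 mM KNO3 and the 6 libraries of *nrt1.13* at 0.2 mM KNO3, a single line whose *NRT1.13* gene, of the NRT1/PTR family, carries a T-DNA, served to ask whether the change with age differed by supply or by genotype. All 24 libraries entered the filter on low values and the estimate of the variance.

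Nitrate is a main nitrogen source of plants and also a signal that sets growth, defence and the time of flowering. Between these harvests an Arabidopsis rosette expands, turns from juvenile to adult leaves and approaches the floral transition, which the *SPL* factors of the age pathway promote and *FLC* and the AP2-like proteins repress. Ageing leaves can also begin to dismantle chlorophyll and protein and send the nitrogen to growing organs. Ribosomes and the photosynthetic proteins hold much of the nitrogen of a leaf, and jasmonate and glucosinolates belong to its defence against herbivores.

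The 6 libraries held 31135690 to 38584758 reads on genes, recovered from the deposited values, and a CPM (the read count of a gene scaled by the authors to a common library size) of 2 stood for 62.0 to 77.7 reads. Root markers summed to at most 1.55 CPM and flower organ markers to at most 7.07 CPM in each of the 6 plants. In a principal component analysis of all 24 libraries, the first component (47.9% of the variance) placed the 0.2 mM plants of 25 days, of both genotypes, at 24.3 to 36.2 and all others at 2.8 or below. Wild-type replicate 2 at 16 days stood apart on the fourth component (3.3%), at -18.9 against -4.1 to 8.5 for the other 23 libraries, and results that rest on it are given with and without it. In whole shoots, fewer cells of a type and less RNA per cell cannot be told apart.

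From 16 to 25 days 3498 of the 15108 genes tested rose (23.2%) and 4708 fell (31.2%) in limma, with 0.05 as the highest adjusted *P* (Benjamini-Hochberg) allowed. With a fold change (FC) of at least 1.8 required as well, 422 genes rose (2.79%) and 536 fell (3.55%). These last genes are referred to as passing the FC limit. For any gene list below, the shares to set beside its counts are 23.2% and 31.2%, or 2.79% and 3.55% past the FC limit. The values of the 3 young and the 3 older plants did not overlap for 3801 genes that were higher (25.2%) and 5011 that were lower (33.2%) at 25 days. All fold changes are on the scale of log2(CPM + 0.1), and the median over all genes was -0.05. Without 16-day replicate 2, 362 genes rose and 505 fell past the FC limit. In the plot of gene groups, ribosomal, nucleolar and cytokinin-response genes stood at the rising end and cold-regulated, jasmonate and glucosinolate genes at the falling end.

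**Figure D1:**
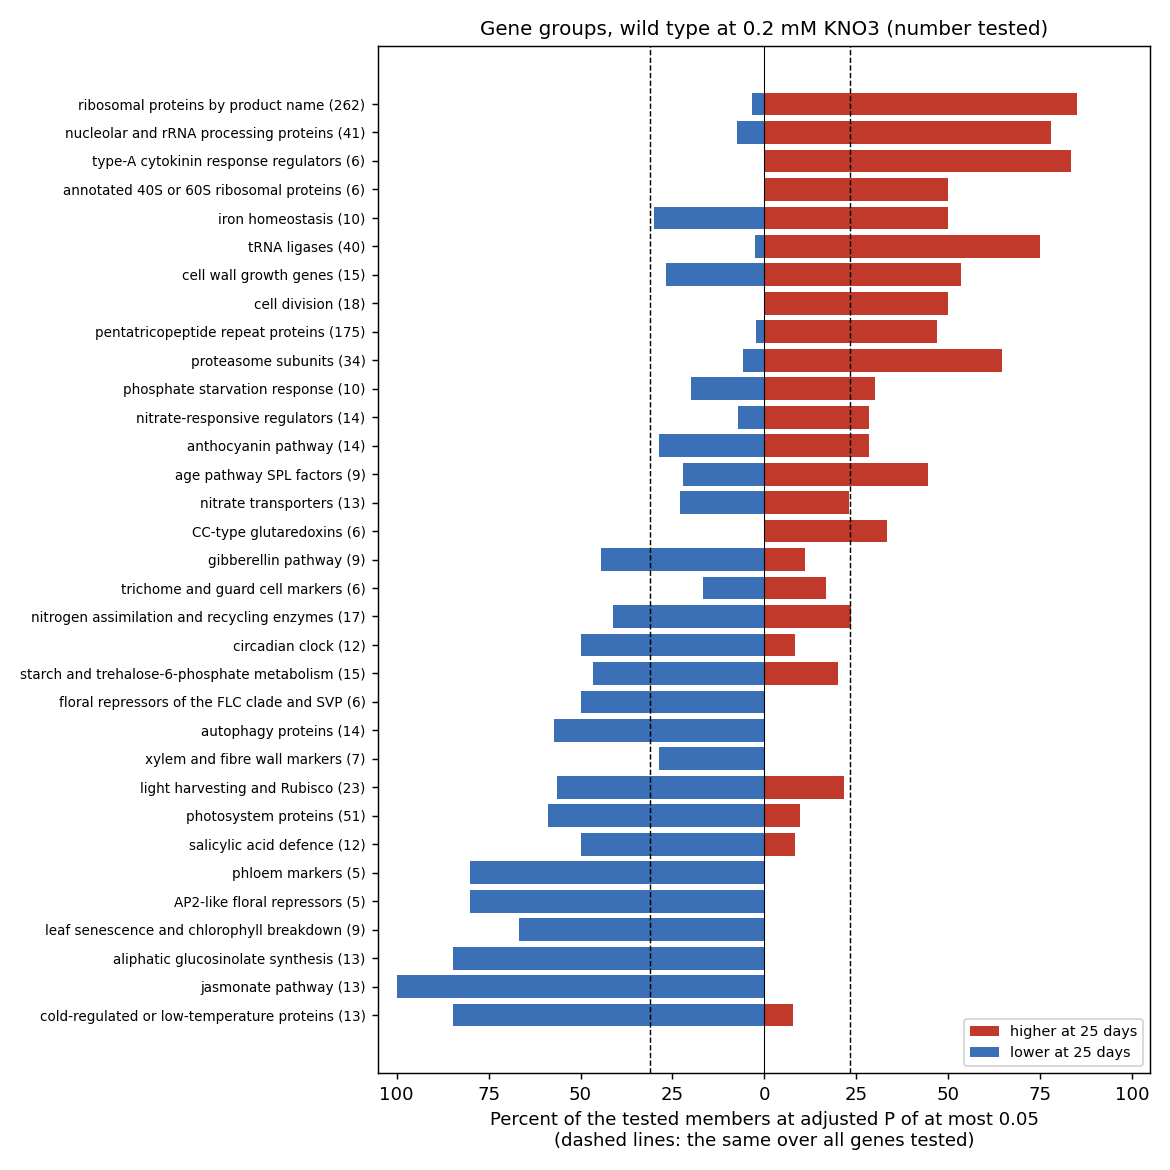
Percent of the tested members of each gene group that rose (red, to the right) or fell (blue, to the left) between the ages in low-nitrate wild type at an adjusted P of at most 0.05, with the number tested in brackets. The dashed lines give the same shares over all 15108 genes (23.2% and 31.2%), and all 13 jasmonate genes fell while 223 of 262 ribosomal protein genes rose.

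Among the largest falls were those of cold-regulated genes, which encode small hydrophilic or membrane proteins that protect chloroplasts and cells during freezing and drought and which are induced by the CBF factors. *COR15A*, whose product protects chloroplast membranes, stood at CPM values of 769.9, 670.0 and 806 at 16 days and 79.2, 83.04 and 51.8 at 25 days. Every older plant stood far below every young one (log2 FC -3.42, SE 0.14, adjusted *P* = 2.48e-16). The inner envelope protein gene *COR413IM1* had 118, 133 and 129.8 at 16 days and 13.6, 18.1 and 10.4 at 25 days (log2 FC -3.20, SE 0.12, adjusted *P* = 1.01e-16). *LTI78*, the classical desiccation- and cold-responsive gene, had 271, 196 and 254 at 16 days and 37.9, 36.7 and 27.9 at 25 days, and its groups did not overlap (log2 FC -2.81, SE 0.12, adjusted *P* = 2.57e-15). *KIN2* stood among the most abundant transcripts of the set, with 1583, 1585 and 1528 at 16 days and 228, 255 and 199 at 25 days (log2 FC -2.79, SE 0.11, adjusted *P* = 2.4e-16). *COR15B*, the neighbour and close relative of *COR15A*, fell in parallel (log2 FC -2.63).

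Of 17 genes whose annotated product names cold regulation or low temperature, a group put together after values were seen, 13 were tested. Among these 11 fell, 9 of them past the FC limit, 1 rose and 1 did neither, with a median log2 FC of -1.35. The dehydrin gene *COR47* (-1.56), *COR314-TM2* (-1.35) and *COR413-PM1* (-1.20) were among those that fell. *COR413-PM2* (log2 FC -0.11) did not pass. *GRP7*, a clock-regulated RNA-binding protein, fell less (-0.42), and its relative *AT4G39260* rose (log2 FC 0.31). The summed CPM of the group was 8318 to 8827 in the young and 4185 to 4426 in the older plants.

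The 250 bases before the annotated starts of *COR15A* (minus strand of chromosome 2) and *LTI78* (plus strand of chromosome 5), taken from RefSeq's TAIR10.1, are shown because CBF factors are known to bind a core of CCGAC in these very promoters. Capitals mark CCGAC on either strand and, in *COR15A*, the G-box CACGTG, which bZIP and bHLH factors are known to bind.
COR15A: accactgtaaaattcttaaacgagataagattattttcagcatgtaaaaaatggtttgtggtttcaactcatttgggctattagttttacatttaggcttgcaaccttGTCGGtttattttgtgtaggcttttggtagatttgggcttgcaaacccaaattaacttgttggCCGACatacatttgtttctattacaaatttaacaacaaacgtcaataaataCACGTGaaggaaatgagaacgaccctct
LTI78: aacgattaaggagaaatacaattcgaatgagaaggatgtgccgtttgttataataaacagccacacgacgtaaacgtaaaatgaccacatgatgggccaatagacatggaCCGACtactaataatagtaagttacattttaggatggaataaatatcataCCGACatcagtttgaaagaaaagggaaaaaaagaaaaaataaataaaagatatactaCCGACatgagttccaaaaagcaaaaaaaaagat
There were 2 matches to CCGAC in the *COR15A* window and 3 in the *LTI78* window. The same letters occurred in 3 of 13 windows of the cold group (23.1%) and in 13.3% of the 15049 windows of all tested genes that could be read, and 10 of the 13 cold windows held none. Among the genes that fell past the FC limit the share was 12%. The G-box letters occurred in 2 of the 13 cold windows (15.4%), in 7.45% of all windows and in 10.3% of those that fell past the limit. The *LTI78* window held no G-box.

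**Figure D2:**
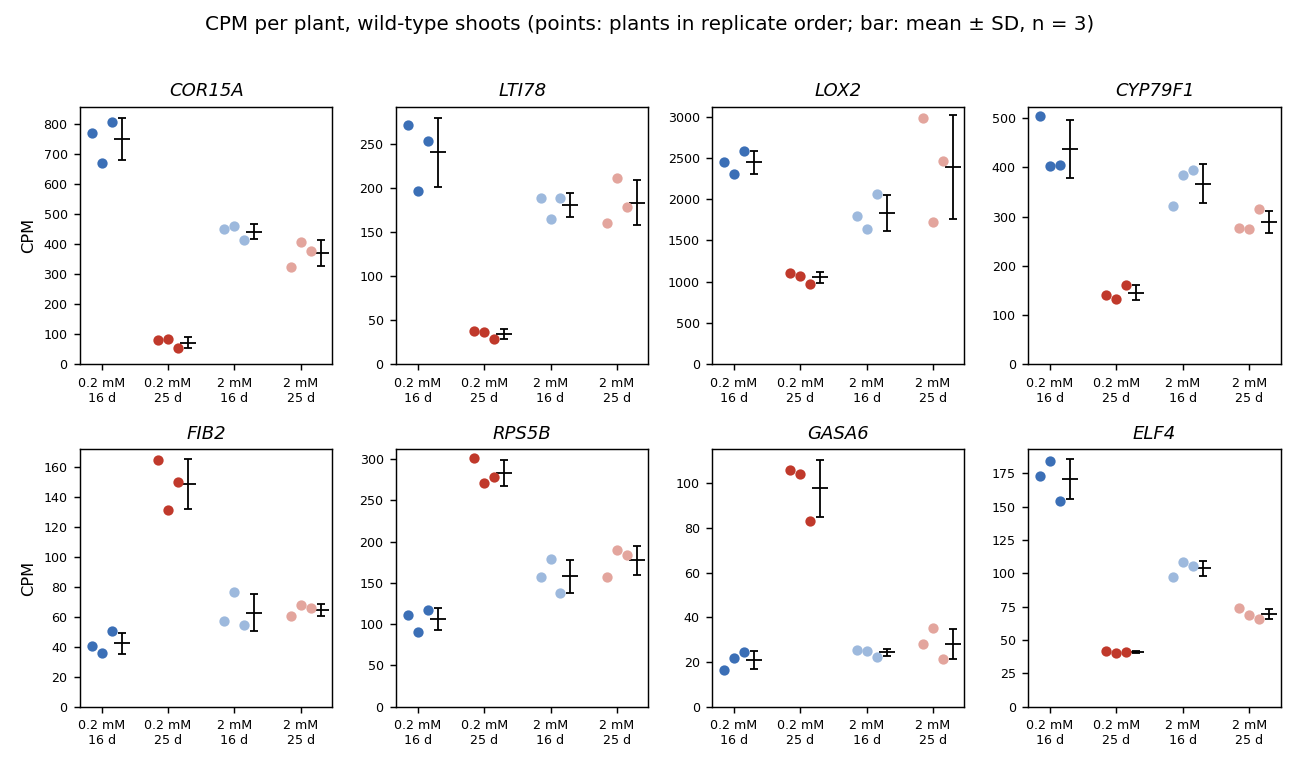
CPM of 8 genes in each wild-type plant at 0.2 mM (dark points) and 2 mM KNO3 (pale points), at 16 (blue) and 25 days (red), with the mean and SD of 3 plants as a black bar. COR15A, LTI78, LOX2, CYP79F1 and ELF4 are lower and FIB2, RPS5B and GASA6 higher at 25 days at 0.2 mM with no overlap, while the 2 mM plants of both ages lie close together for most of them.

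The jasmonate genes fell together. Jasmonate is made from plastid fatty acids by a lipoxygenase, AOS, AOC and OPR3, and acts through MYC2 and its JAZ repressors on defence genes. All 13 tested members of the list fell, 12 of them past the FC limit, against 31.2% and 3.55% of all genes, and the median log2 FC was -1.32. The summed CPM of the list went from 4544 to 4711 at 16 days to 1733 to 1804 at 25 days.

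Among the biosynthetic genes, *LOX2*, the chief leaf lipoxygenase of the pathway, had 2448, 2302 and 2587 at 16 days and 1102, 1074 and 975 at 25 days (log2 FC -1.22, SE 0.17, adjusted *P* = 1.1e-06). *AOS* had 346, 327 and 320.4 at 16 days and 130.1, 133 and 133 at 25 days (log2 FC -1.32, SE 0.11, adjusted *P* = 2.67e-10). The allene oxide cyclase gene *AOC1* had 36.9, 50.4 and 38.95 at 16 days and 3.71, 4.87 and 6.29 at 25 days (log2 FC -3.08, SE 0.21, adjusted *P* = 5.56e-12), and its more abundant paralogue *AOC2* had 393, 463 and 431 at 16 days and 131, 139 and 134 at 25 days (log2 FC -1.67). *OPR3* fell least of these (-0.87). In none of these 5 biosynthetic genes did an older plant reach the level of a young one.

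The regulators and targets went the same way. *MYC2*, the master bHLH factor of the response, had 132, 137 and 133 at 16 days and 50.5, 50.5 and 66.8 at 25 days (log2 FC -1.27, SE 0.17, adjusted *P* = 4.15e-07), and the repressor gene *JAZ1* had 15.1, 16.1 and 23.1 at 16 days and 8.42, 5.30 and 8.73 at 25 days (log2 FC -1.27). The vegetative storage protein genes *VSP1* (-1.99) and *VSP2* (-1.51), the arginase gene *ARGAH2* (-1.62) and the cystine lyase gene *CORI3* (-2.68), all known jasmonate targets, fell too. *CORI3* had 351, 284 and 306 at 16 days and 53.5, 47.5 and 45.5 at 25 days. Chosen by their size of change alone, *FAMT* (-2.56), a methyltransferase gene, and the thionin genes *THI2.2* (-2.78) and *AT1G66100* (-2.57) were also among the 12 largest falls, as was *AT1G76960* (-2.76), which is not characterized. Thionins are small antimicrobial peptides.

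Aliphatic glucosinolates are sulfur- and nitrogen-containing defence compounds made from methionine. Of 13 tested genes of their pathway 11 fell, 9 past the FC limit, and 0 rose (0 also without adjustment and in edgeR), with a median log2 FC of -0.99. *CYP79F1*, which commits the chain-elongated amino acid to the pathway, had 505, 403 and 404 at 16 days and 141, 133 and 162 at 25 days (log2 FC -1.58, SE 0.14, adjusted *P* = 5.54e-10). The transaminase gene *BCAT4*, which opens the chain elongation, had 396, 396 and 332 at 16 days and 131, 139 and 160.2 at 25 days (log2 FC -1.38, SE 0.10, adjusted *P* = 3.28e-11). *MAM1* (-1.19), *CYP83A1* (-0.97) and the sulfotransferase genes *SOT17* (-1.25) and *SOT18* (-1.13) fell without overlap between the ages. The 2 members that did not pass were *MAM3* (log2 FC -0.06) and the regulator *MYB28*, with 102, 98.5 and 93.3 at 16 days and 84.97, 90.02 and 96.5 at 25 days (adjusted *P* = 0.122). The second regulator, *MYB29*, fell (-0.70).

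Ribosomal protein genes rose in large numbers. A ribosome of the cytosol is put together in the nucleolus, where fibrillarin and the NOP56 proteins guide the modification of ribosomal RNA. Of 295 genes whose product name marks a ribosomal protein, a group formed after values were seen, 262 were tested. Of these 223 rose and 9 fell, with 101 and 1 past the FC limit and a median log2 FC of 0.74. Together their transcripts took 51270 to 55320 CPM in the young and 83130 to 89010 CPM in the older plants. Product names alone do not part ribosomes of the cytosol from those of plastids and mitochondria, so these counts and sums may mix them. The narrower rule of products that read 40S or 60S ribosomal protein took in 6 tested genes, of which 3 rose and 0 fell (0 also without adjustment and in edgeR).

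Single genes showed the rise in each plant. *RPS5B*, of the small subunit, had 111, 91.1 and 117 at 16 days and 301, 271 and 278 at 25 days (log2 FC 1.42, SE 0.08, adjusted *P* = 7.75e-13). *P40*, the ribosomal protein SA, had 515, 463 and 545 at 16 days and 1089, 997 and 1040 at 25 days (log2 FC 1.04, SE 0.06, adjusted *P* = 1.02e-12), and its paralogue *RPSAb* had 13.6, 11.2 and 14.2 at 16 days and 34.1, 30.1 and 35.8 at 25 days (log2 FC 1.36). The abundant *AT3G09200*, of the L10 family, had 647, 598 and 679.9 at 16 days and 1588, 1521 and 1709 at 25 days (log2 FC 1.32, SE 0.06, adjusted *P* = 9.88e-15), and the scarcer *AT2G40010* of the same family rose most of all ribosomal protein genes, with 7.47, 8.99 and 10.11 at 16 days and 35.1, 35.9 and 43.7 at 25 days (log2 FC 2.1, SE 0.13, adjusted *P* = 7.75e-13). In *AT2G40010* 50.2% of the exon length overlaps a gene on the other strand, so reads of both may be mixed. Of the 9 that fell, those of the L34e and L18ae families were the most frequent, such as *AT3G14595* (log2 FC -0.95). In 10 of the 262 genes at least 5% of the 75-base windows also occurred elsewhere in the genome, where uniquely mapped reads cannot fall.

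**Figure D3:**
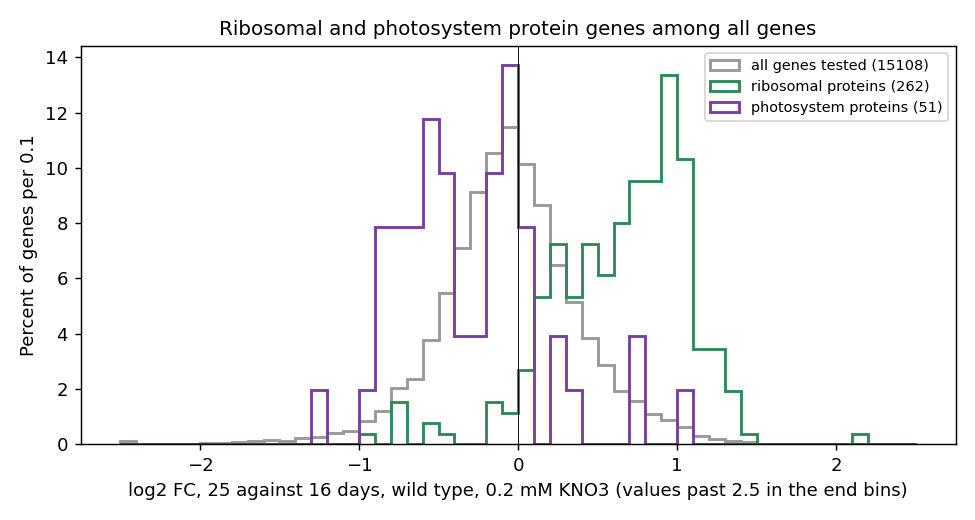
Distribution of the log2 FC between the ages, for low-nitrate wild type, over all 15108 genes tested (grey), 262 ribosomal protein genes (green) and 51 photosystem protein genes (purple), as the percent of each set per 0.1. The medians are -0.05 over all genes, 0.74 for the ribosomal and -0.35 for the photosystem proteins.

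Nucleolar and rRNA-processing genes, also grouped by product name after values were seen, rose in 32 of 41 cases and fell in 3 (median log2 FC 0.74, 15 and 0 past the FC limit). *FIB2*, one of the fibrillarin genes, had 40.3, 36.1 and 50.4 at 16 days and 165, 131 and 149.9 at 25 days (log2 FC 1.82, SE 0.12, adjusted *P* = 4.26e-12). *AT5G27120*, a NOP56-like gene, had 50.5, 51.7 and 64.7 at 16 days and 175, 143 and 156 at 25 days (log2 FC 1.51), and *NOP56* had 161, 159.6 and 199 at 16 days and 373, 316 and 369 at 25 days (log2 FC 1.03). The nucleolar histone deacetylase gene *HDA3*, with 57.4, 50.5 and 70.95 at 16 days and 180.0, 149.8 and 174 at 25 days, was among the 12 largest rises as well (log2 FC 1.5). Others of the 12 have products of gene expression in organelles or of transport, namely the polyribonucleotide nucleotidyltransferase gene *AT5G14580* (1.51), the PPR protein gene *AT2G27775* (1.51) and the mitochondrial carrier gene *AT3G51870* (1.65), with *AT3G49320*, a metal-dependent hydrolase gene, at 1.66.

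Upstream windows of ribosomal protein genes are known to be rich in the site II letters TGGGCC, which TCP factors bind, and in telo-boxes (AAACCCTAA). Both strands of the 250 bases before the start were searched. The site II letters occurred in 130 of the 262 ribosomal protein windows (49.6%), in 41.5% of the nucleolar ones and in 18.8% of all windows. They occurred in 37.9% of the windows of genes that rose past the FC limit and 9.02% of those that fell. Of the 422 genes that rose past the limit 101 are ribosomal protein genes, so the shares of these sets are not separate observations. The telo-box occurred in 6.11% of the ribosomal protein windows, 2.44% of the nucleolar ones and 2.12% of all. Among the windows of genes past the FC limit it occurred in 6.4% of those that rose and 0.376% of those that fell. The windows of the 2 ribosomal protein genes with the largest log2 FC among those past the FC limit that hold the letters and no other gene are shown with the site II letters in capitals, both on the plus strand, of chromosomes 5 and 3.
AT5G27850: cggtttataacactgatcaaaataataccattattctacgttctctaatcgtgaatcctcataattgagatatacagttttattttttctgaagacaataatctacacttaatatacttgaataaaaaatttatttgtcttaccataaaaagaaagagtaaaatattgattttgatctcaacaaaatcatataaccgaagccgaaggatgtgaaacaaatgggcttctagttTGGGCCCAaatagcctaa
AT3G07110: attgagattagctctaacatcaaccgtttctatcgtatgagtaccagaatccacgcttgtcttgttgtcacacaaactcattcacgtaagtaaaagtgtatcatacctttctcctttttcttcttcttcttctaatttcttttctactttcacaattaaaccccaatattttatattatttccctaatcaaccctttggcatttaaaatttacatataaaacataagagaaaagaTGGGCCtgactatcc
In *AT5G27850* the capitals hold 2 overlapping matches, 1 on each strand, and *AT3G07110* holds 1. *AT5G27850* had CPM values of 298, 282 and 351 at 16 days and 754, 686 and 736 at 25 days and *AT3G07110* had 215, 198 and 238 at 16 days and 513, 478 and 531 at 25 days. Both genes were higher in each older plant than in any young plant (log2 FC 1.23 and 1.23). A match of letters is a description and not a site shown to be bound.

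The gene with the largest rise was *GASA6*, a gibberellin-regulated gene for a small cysteine-rich protein that promotes cell elongation. It had 16.5, 21.9 and 24.5 at 16 days and 106, 104 and 83.1 at 25 days (log2 FC 2.23, SE 0.17, adjusted *P* = 4.79e-11). *PR4*, a chitin-binding pathogenesis-related protein gene, had 3.12, 4.71 and 2.36 at 16 days and 16.4, 13.8 and 15.8 at 25 days (log2 FC 2.19, SE 0.23, adjusted *P* = 1.24e-08). *AT3G21670*, which the reference names NPF6.4 and which belongs to the NRT1/PTR family like *NRT1.13*, had 13.4, 11.4 and 14.6 at 16 days and 57.9, 55.9 and 47.7 at 25 days (log2 FC 2.03, SE 0.12, adjusted *P* = 1.09e-12). *ATSPS4F*, a sucrose-phosphate synthase gene of sucrose synthesis, had 24.8, 22.2 and 29.3 at 16 days and 113, 106 and 87 at 25 days (log2 FC 2.00, SE 0.10, adjusted *P* = 8.52e-14). In all 4 genes the lowest older plant stood well above the highest young one.

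Growth genes rose in part. Of 15 wall-growth genes 8 rose, 2 past the FC limit, and 4 fell (median log2 FC 0.27). The expansin gene *EXPA1*, whose protein loosens the wall, had 137, 154 and 132 at 16 days and 374, 366 and 294 at 25 days (log2 FC 1.28, SE 0.09, adjusted *P* = 5.25e-12), and the arabinogalactan protein gene *AGP17* had 18.3, 19.97 and 18.1 at 16 days and 43.3, 40.2 and 42.3 at 25 days (log2 FC 1.16, SE 0.09, adjusted *P* = 3.29e-11). *EXPA10* (0.65) and *EXL3* (0.61) rose, and *EXPA3* (-0.43) and *EXL2* (-0.81) fell. Of 18 cell-division genes 9 rose, none past the FC limit, and 0 fell (1 without adjustment and 0 in edgeR), with a median log2 FC of 0.26. *CYCA1;1* (0.77), *AUR1* (0.56), *CYCB1;1* (0.55) and the replication gene *PCNA1* (0.38) were among the 9. The D-type cyclin gene *CYCD3;1* had 38.1, 37.7 and 38.98 at 16 days and 35.1, 37.5 and 40.2 at 25 days and did not pass (log2 FC -0.03). Of 2 tested shoot meristem markers 1 rose, the stem cell gene *STM* (log2 FC 0.57), and the other did not pass (log2 FC -0.17). The rise of *STM* did not pass without 16-day replicate 1 (0.34, adjusted *P* = 0.0981) or without 25-day replicate 3 (0.45, adjusted *P* = 0.0545).

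Photosynthesis genes tended down. Of 51 photosystem protein genes, grouped by product name after values were seen, 30 fell and 5 rose (6 and 1 past the FC limit), with a median log2 FC of -0.35. Their summed CPM fell from 58220 to 59330 in the young to 38770 to 43640 in the older plants. In the antenna, which gathers light for both photosystems, single genes went opposite ways. *LHCB1.4* had 476, 568 and 419 at 16 days and 90.4, 98.6 and 90.8 at 25 days (log2 FC -2.37, SE 0.17, adjusted *P* = 9.53e-12), *LHCB1.1* had 453, 351 and 380.2 at 16 days and 793, 708 and 707 at 25 days (log2 FC 0.90, SE 0.10, adjusted *P* = 2.47e-08), and *LHCB1.3* had 10110, 10000 and 10260 at 16 days and 10570, 10880 and 10070 at 25 days and did not pass. Of these genes 7.3% to 10.4% of the sequence windows also occur elsewhere, which limits how well their reads are told apart.

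Among subunits of photosystem I, *PSAO* had 2121, 2373 and 2165 at 16 days and 1122, 1259 and 1132 at 25 days (log2 FC -0.92, SE 0.09, adjusted *P* = 1.57e-09), and *PSAH2* (-0.87) and *PSAK* (-0.87) fell alike. *PSBR*, of photosystem II, had 4165, 4413 and 4312 at 16 days and 2307, 2580 and 2262 at 25 days (log2 FC -0.85). *LHCB4.3*, a minor antenna gene, rose, with 23.4, 20.2 and 21.8 at 16 days and 54.9, 44.1 and 35.2 at 25 days (log2 FC 1.01).

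In the fixed list of 23 antenna and Rubisco genes 13 fell and 5 rose (1 and 2 past the FC limit). Of the Rubisco small subunit genes *RBCS1B* (0.43) and *RBCS2B* (0.43) rose and *RBCS3B* (-0.35) fell, with 5.3% to 16.9% of windows shared. *RCA*, the activase that keeps Rubisco active, had 4192, 3703 and 4232 at 16 days and 7160, 7455 and 6358 at 25 days and rose without overlap (log2 FC 0.79, SE 0.09, adjusted *P* = 7.14e-08).

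Of the 3 lists of nitrate transport, assimilation and regulation 1 gene, *PPDK*, passed the FC limit. Of 13 tested genes in the list of nitrate transporters, *NRT1.13* included, 3 rose and 3 fell, none past the FC limit. These shares are close to those of all genes (23.2% and 31.2%). The list left out *AT3G21670*, of the NRT1/PTR family, which rose past the limit (log2 FC 2.03). *CLCA*, the proton exchanger that stores nitrate in the vacuole, had 45.7, 45.2 and 45.6 at 16 days and 70.04, 69.02 and 64.05 at 25 days (log2 FC 0.57, SE 0.06, adjusted *P* = 3.81e-08), and *NRT2.7*, of the tonoplast, had 26.98, 25.8 and 27.1 at 16 days and 15.4, 17.1 and 13.1 at 25 days (log2 FC -0.81, SE 0.10, adjusted *P* = 1.48e-07). *NRT1.7*, which loads nitrate into the phloem of old leaves, had 75.7, 68.5 and 70.6 at 16 days and 55.5, 57.1 and 43.02 at 25 days (log2 FC -0.47), and *NRT1.5* rose from low values (log2 FC 0.59). *NRT1.1*, the transceptor, had 73.5, 63.6 and 58.6 at 16 days and 72.2, 67.4 and 62.7 at 25 days and did not pass. *NRT1.13* itself had 10.2, 8.74 and 7.07 at 16 days and 8.71, 8.35 and 7.16 at 25 days in the wild type (log2 FC -0.09, adjusted *P* = 0.716), against 2.19 to 4.42 at 16 and 3.01 to 4.002 at 25 days in *nrt1.13*.

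Of 17 assimilation and recycling enzymes 7 fell and 4 rose, against 31.2% and 23.2% of all genes. The nitrate reductase gene *NIA2* had 415, 359 and 402 at 16 days and 289, 273 and 277 at 25 days (log2 FC -0.48, SE 0.08, adjusted *P* = 8.81e-06) and the nitrite reductase gene *NIR1* had 302, 250.1 and 302 at 16 days and 205, 194 and 183 at 25 days (log2 FC -0.55, SE 0.10, adjusted *P* = 3.05e-05), while *NIA1* had 28.7, 22.9 and 23.4 at 16 days and 26.7, 21.4 and 24.8 at 25 days and did not pass. The glutamate synthase gene *GLT1* (-0.53) and the ammonium transporter gene *AMT1;1* (-0.74) fell, and *PPDK*, a pyruvate enzyme of nitrogen remobilization, fell furthest, with 29.5, 24.2 and 29.8 at 16 days and 16.8, 15.8 and 12.1 at 25 days (log2 FC -0.90, SE 0.11, adjusted *P* = 1.43e-07). The cytosolic glutamine synthetase gene *GLN1;2* (0.30) and the glutamate dehydrogenase genes *GDH1* (0.45) and *GDH2* (0.49) rose. Of 14 nitrate-responsive regulators 4 rose and 1 fell, but only 2 rose without 16-day replicate 1 or without 25-day replicate 1. *BT2*, a gene that dampens nitrate uptake, had 27.8, 31.5 and 33.4 at 16 days and 57.1, 51.6 and 48.4 at 25 days (log2 FC 0.76, SE 0.10, adjusted *P* = 3.79e-07), and *LBD39*, a repressor of nitrogen-responsive genes, rose (log2 FC 0.47). *BT1* went the other way (log2 FC -0.66), and the regulator *NLP7* had 48.6, 51.9 and 52.5 at 16 days and 50.7, 48.4 and 48.3 at 25 days and did not pass.

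Of 19 genes of salicylic acid defence 12 were tested. Of these 6 fell, 2 past the FC limit, and 1 rose (median log2 FC -0.38), while 3 rose without the filter on low values. Over all genes 31.2% fell and 23.2% rose. *WRKY70*, a factor that sets salicylic acid against jasmonate responses, had 86.7, 82.3 and 83.3 at 16 days and 30.5, 22.3 and 14.3 at 25 days (log2 FC -1.97, SE 0.15, adjusted *P* = 3.87e-11), and *LURP1*, a pathogen-induced gene, had 174, 188 and 134 at 16 days and 96.03, 74.3 and 35.9 at 25 days (log2 FC -1.37, SE 0.22, adjusted *P* = 1.03e-05). The receptor gene *NPR1* fell in a narrow range, with 33.5, 33.1 and 32.7 at 16 days and 24.4, 23.4 and 23.2 at 25 days (log2 FC -0.48). *WRKY54* fell (log2 FC -0.58) but not without 25-day replicate 3 (-0.31, adjusted *P* = 0.0794), and *ICS1*, the main synthesis gene, had 6.46, 6.37 and 6.28 at 16 days and 7.22, 5.83 and 7.13 at 25 days and did not pass. Of the pathogenesis-related genes, *PR2*, a glucanase gene, rose, with 3.84, 2.56 and 2.38 at 16 days and 7.29, 4.62 and 6.01 at 25 days (log2 FC 1.01, SE 0.28, adjusted *P* = 0.00359), and *PR5* fell (log2 FC -0.45), but not without 25-day replicate 3 (-0.23, adjusted *P* = 0.207), 16-day replicate 2 (-0.37, 0.0846) or 16-day replicate 1 (-0.41, 0.0604). *PR1*, below the limit for testing, was listed at 0.103, 0 and 0 at 16 days and 3.39, 5.24 and 2.28 at 25 days. Its exact two-sided permutation *P* was 0.1, the smallest that 3 plants against 3 allow.

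Of 22 genes of senescence and chlorophyll breakdown 9 were tested, and genes near 0 at 16 days could not enter the test. Of the 9 tested 6 fell and 0 rose (0 also without adjustment and in edgeR), with a median log2 FC of -0.50. The chlorophyll *b* reductase gene *NYC1* had 300.1, 259.8 and 299.7 at 16 days and 159, 186 and 153 at 25 days (log2 FC -0.79, SE 0.11, adjusted *P* = 7.29e-07) and *PAO*, which opens the chlorophyll ring, had 88.7, 75.6 and 80.8 at 16 days and 47.3, 48.5 and 46.8 at 25 days (log2 FC -0.78, SE 0.08, adjusted *P* = 1.67e-08). *PPH* (-0.50) and *ACD2* (-0.50) fell as well, and *SGR1* fell only with 16-day replicate 2 in the fit (adjusted *P* = 0.0741 without it). *SAG12*, the classical marker of late senescence, was listed at 0 to 0.157 CPM in the 6 plants. *SAG13*, below the limit for testing, was listed at 0.644, 0.343 and 0.114 at 16 days and 3.35, 1.61 and 4.80 at 25 days (exact *P* = 0.1).

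Starch and sugar genes fell in 7 of 15 cases and rose in 3, none past the FC limit, against 31.2% and 23.2% of all genes. *SEX1*, the glucan water dikinase that starts starch breakdown, had 839, 715 and 789 at 16 days and 498, 497 and 429 at 25 days (log2 FC -0.72, SE 0.08, adjusted *P* = 3.41e-08), and *DPE2* (-0.55) of the same route fell. The trehalose-6-phosphate synthase gene *TPS1* rose (log2 FC 0.30), as did *TPS11* (0.67) and *BAM9* (0.66), while *TPS10* fell (-0.53).

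Of 9 *SPL* genes of the age pathway 4 rose and 2 fell, none past the FC limit, against 23.2% and 31.2% of all genes. *SPL4* had 3.04, 3.62 and 2.95 at 16 days and 5.64, 5.34 and 6.45 at 25 days (log2 FC 0.84, SE 0.19, adjusted *P* = 0.000503), while *SPL9*, with 13, 15.7 and 17.2 at 16 days and 11.7, 11.2 and 11.96 at 25 days (log2 FC -0.38), and *SPL11* (-0.44) fell. *SPL3* had 7.70, 11.8 and 9.06 at 16 days and 9.13, 9.09 and 7.74 at 25 days and did not pass. The microRNAs of this pathway, miR156, which targets the *SPL* genes, and miR172, could not be described, because all 9 primary transcripts were listed at 0 in every plant.

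Among the AP2-like repressors, which miR172 targets, 4 of 5 fell. *TOE2* had 39.7, 43.4 and 44.7 at 16 days and 22.6, 24.5 and 29.1 at 25 days (log2 FC -0.75, SE 0.09, adjusted *P* = 6.46e-08), *SNZ* had 43.1, 52.8 and 46.4 at 16 days and 35.8, 35.2 and 35.2 at 25 days (log2 FC -0.42), and *TOE3* (-0.52) and *TOE1* (-0.23) fell too, *TOE1* with an adjusted *P* of 0.0503 without 16-day replicate 2. *AP2* itself had 20.9, 21.7 and 22.2 at 16 days and 19.8, 21.8 and 19.7 at 25 days and did not pass.

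*FLC*, the MADS-box repressor that vernalization silences, had 6.33, 14.4 and 8.83 at 16 days and 5.998, 6.98 and 4.83 at 25 days (log2 FC -0.66, SE 0.21, adjusted *P* = 0.00876). The ages overlapped, and the fall rested on single plants, since it was -0.34 (adjusted *P* = 0.134) without 16-day replicate 2 and -0.52 (adjusted *P* = 0.057) without 25-day replicate 3. In its clade with *SVP* 3 of 6 genes fell, but 1 of 6 without 16-day replicate 2. That one was *SVP*, with 96.8, 93.8 and 98.8 at 16 days and 75.8, 81.9 and 78.6 at 25 days (log2 FC -0.29, SE 0.07, adjusted *P* = 0.00137). The integrator *SOC1* had 18.3, 16.4 and 16.2 at 16 days and 14.96, 13.6 and 12.2 at 25 days (log2 FC -0.32), with an adjusted *P* of 0.055 without 16-day replicate 1 and 0.0679 without 25-day replicate 3. *AGL24*, which promotes flowering with it, had 26.5, 21.03 and 25.4 at 16 days and 39.8, 39.9 and 41.1 at 25 days (log2 FC 0.73, SE 0.11, adjusted *P* = 2.57e-06). *CO*, which reads day length, had 4.02, 4.90 and 4.77 at 16 days and 4.42, 4.56 and 4.75 at 25 days and did not pass.

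The florigen gene *FT* was below the limit for testing and was listed at 3.48, 2.93 and 2.47 at 16 days and 0.161, 0.31 and 0.787 at 25 days, without overlap (exact *P* = 0.1). At 2 mM KNO3 *FT* had a mean CPM of 2.895 at 16 and 1.85 at 25 days. The meristem identity gene *LFY* was listed at 0.0772, 0.25 and 0.0568 at 16 days and 0.516, 0.31 and 0.866 at 25 days. The *LFY* values and those of *FT* at 25 days stand for few reads.

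Cytokinin response genes rose, with 5 of 6 type-A response regulators higher, 2 past the FC limit, and 0 lower (0 also without adjustment and in edgeR), with a median log2 FC of 0.53. These genes are rapid cytokinin targets and feed back on the pathway. *ARR6* had 5.84, 7.71 and 6.64 at 16 days and 14.2, 14.1 and 13.3 at 25 days (log2 FC 1.04, SE 0.15, adjusted *P* = 1.49e-06), *ARR9* had 5.56, 5.87 and 5.68 at 16 days and 10.7, 10.7 and 9.99 at 25 days (log2 FC 0.86, SE 0.13, adjusted *P* = 2.84e-06) and *ARR4*, the most abundant, had 121, 127 and 117 at 16 days and 161, 166 and 159.8 at 25 days (log2 FC 0.41). *ARR16* had 5.74, 4.62 and 3.38 at 16 days and 5.19, 4.19 and 4.33 at 25 days and did not pass. In the gibberellin list *GASA6* rose and 4 of 9 fell, 2 of 9 without 16-day replicate 2. The receptor gene *GID1C* was among the 4, with 13.03, 9.52 and 11.4 at 16 days and 6.03, 5.24 and 7.71 at 25 days (log2 FC -0.83, SE 0.13, adjusted *P* = 8.03e-06).

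In the anthocyanin list 4 of 14 rose and 4 fell, against 23.2% and 31.2% of all genes. The glutathione transferase gene *TT19*, needed to bring the pigment to the vacuole, had 13.96, 13.3 and 13.4 at 16 days and 23.96, 22.1 and 27.9 at 25 days (log2 FC 0.85, SE 0.22, adjusted *P* = 0.00162), and the glucosyltransferase gene *AT4G14090* had 16.2, 13.2 and 14.2 at 16 days and 30.02, 27.9 and 31.6 at 25 days (log2 FC 1.04). *F3H*, an early enzyme, fell (log2 FC -0.72). Only 2 of the 4 rises were found when any of 5 of the 6 plants was left out (all but 16-day replicate 1), and only 2 of the 4 falls without 25-day replicate 1 or under quantile normalization. *CHS*, which opens the pathway, had 226, 169 and 264 at 16 days and 234, 172 and 228 at 25 days and did not pass.

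The iron genes differed widely between plants of one age. Of 15 genes in the list 10 were tested. Of these 10 tested genes 5 rose, 3 past the FC limit, and 3 fell, 2 past it (median log2 FC 0.47). The members *BHLH38*, *BHLH39*, *BHLH100*, *AT1G47395* and *AT1G47400* were below the limit for testing. Each of them was higher in every older plant than in any young one, with values given further below. Over all genes 23.2% rose and 31.2% fell. *FER1*, the iron-storage ferritin of leaves, had 427, 778 and 236 at 16 days and 107, 88.4 and 44.6 at 25 days (log2 FC -2.51, SE 0.73, adjusted *P* = 0.00498), and the spread among the young plants exceeded 3-fold. *AT2G30766*, not characterized in the reference, had 5.02, 30.5 and 7.07 at 16 days and 51.98, 28.2 and 48.8 at 25 days (log2 FC 2.00, SE 0.50, adjusted *P* = 0.00133), with 16-day replicate 2 among the older plants. *BTS*, a ligase gene that restrains iron uptake, had 69.2, 134 and 68.5 at 16 days and 169, 121 and 143 at 25 days (log2 FC 0.73), and the ferric reductase gene *FRO3* had 14.7, 29.2 and 10.8 at 16 days and 38.3, 29.6 and 28.5 at 25 days (log2 FC 0.93), again with replicate 2 high. Without that plant the log2 FC was -2.08 for *FER1*, 2.78 for *AT2G30766*, 1.05 for *BTS* and 1.33 for *FRO3*, and 5 genes rose and 3 fell as before. *FRO3* did not pass without 16-day replicate 3 (0.62, adjusted *P* = 0.0648). *NAS4*, which makes the metal chelator nicotianamine, had 8.60, 8.18 and 9.94 at 16 days and 28.96, 14.9 and 20.9 at 25 days (log2 FC 1.22, SE 0.22, adjusted *P* = 3.92e-05), and the transporter genes *OPT3* (log2 FC 0.81) and *YSL1* (-0.59) went opposite ways.

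**Figure D4:**
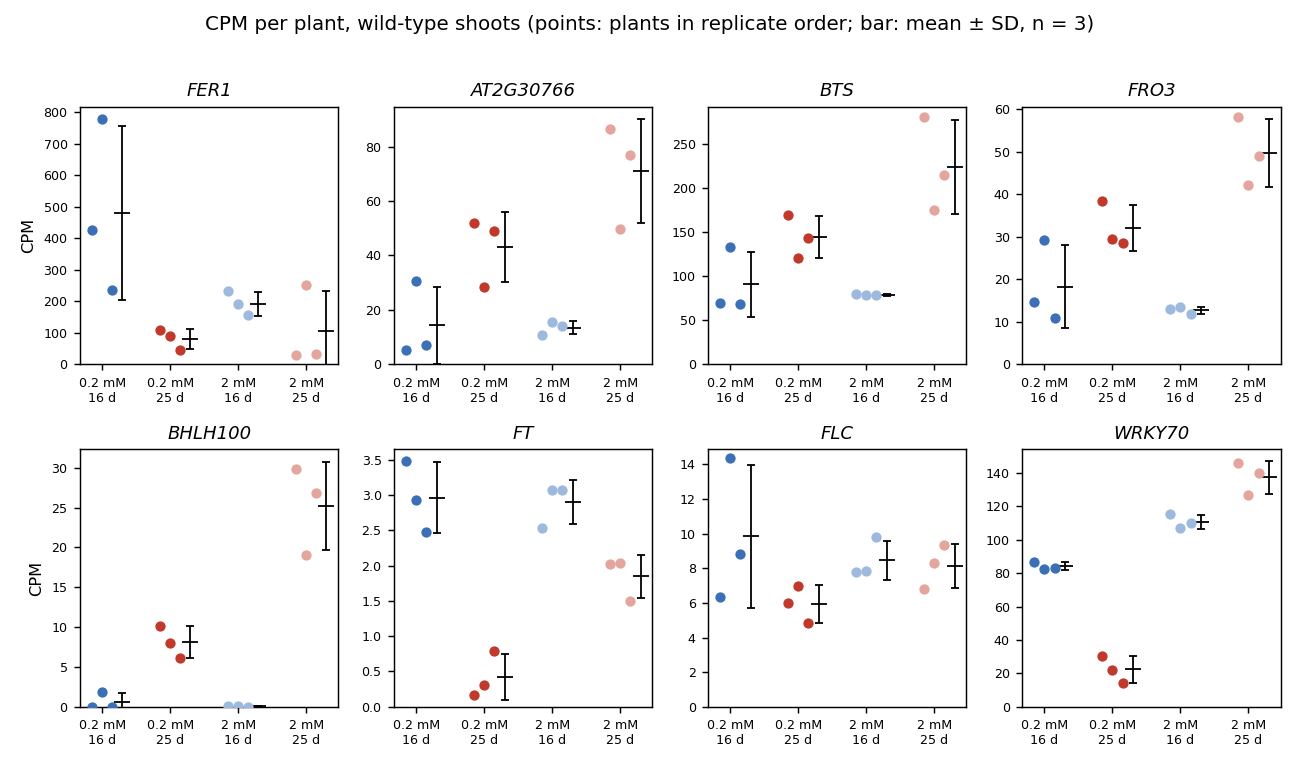
CPM of 8 genes of iron use, flowering and defence in each wild-type plant at 0.2 mM (dark points) and 2 mM KNO3 (pale points), at 16 (blue) and 25 days (red), in replicate order, with the mean and SD of 3 plants as a black bar. The middle 16-day point at 0.2 mM, replicate 2, is high in FER1, AT2G30766, BTS, FRO3 and FLC, and WRKY70 is low only in the older 0.2 mM plants.

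Genes of the clock were read beside these results, because shoots taken at different hours would differ in them. The evening complex gene *ELF4* had 173, 184 and 154 at 16 days and 42.1, 40.1 and 41.02 at 25 days, the largest fall of the list (log2 FC -2.05, SE 0.07, adjusted *P* = 3.62e-17). *TOC1* had 225, 246 and 240.4 at 16 days and 176, 172 and 192 at 25 days (log2 FC -0.40), *FKF1* had 86.8, 82.4 and 88.9 at 16 days and 51.8, 51.3 and 57.4 at 25 days (log2 FC -0.69), and *PRR5* fell too (-0.50). *GI* had 85.1, 73.5 and 77.1 at 16 days and 89.6, 91.7 and 84.6 at 25 days, *ELF3* had 101, 101 and 96.8 at 16 days and 96.4, 92.1 and 106 at 25 days and *PRR7* had 60.95, 53.9 and 50.9 at 16 days and 52.5, 54.8 and 58.3 at 25 days, and none of these 3 passed. In all 6 of 12 tested clock genes fell and 1 rose, against 31.2% and 23.2% of all genes. The 1 that rose was *LNK2* (log2 FC 0.30), which did not pass without 16-day replicate 1 or 3 or without 25-day replicate 2 or 3. The morning genes *CCA1* and *LHY* were at a mean of 0.481 and 0.302 CPM in the young and 1.01 and 0.498 CPM in the older plants. The evening element AAAATATCT occurred in 4 of 12 clock windows (33.3%), 23.1% of the cold windows and 2.62% of all. The part of harvest hour in the falls of cold-regulated genes was not tested.

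Of 5 phloem markers 4 fell (median log2 FC -0.39), against 31.2% of all genes. Their summed CPM were 463.5 to 502.8 in the young and 360.7 to 365.3 in the older plants. *SUC2*, the sucrose loader of companion cells, had 222, 199 and 188 at 16 days and 150.3, 145 and 133 at 25 days (log2 FC -0.50, SE 0.07, adjusted *P* = 1.26e-06). Of 7 xylem and fibre markers 0 rose and 2 fell, but 1 without any of 4 single plants (16-day replicates 1 and 2, 25-day replicates 1 and 2). Summed xylem CPM were 113.1 to 156.0 and 102.3 to 123.6. Of 6 trichome and guard cell markers 1 rose and 1 fell. The rise was that of *FAMA*, a guard cell factor gene, and it did not pass without any 1 of 4 plants (16-day replicates 1 and 3, 25-day replicates 1 and 3), over nuclear genes or with only the libraries of the contrast, while 2 genes fell without 16-day replicate 2. Their sums were 80.5 to 92.0 and 77.2 to 81.9 CPM. The part of tissue make-up in the results was not tested.

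The change with age depended on the nitrate supply. In wild type at 2 mM KNO3, with other plants, only 372 genes rose (2.46%) and 689 fell (4.56%) from 16 to 25 days. The change at 0.2 mM minus that at 2 mM was positive for 2346 genes (15.5%) and negative for 2666 (17.6%) at an adjusted *P* of at most 0.05 of the interaction in limma. The genes that rose past the FC limit at 0.2 mM had a median log2 FC of 1.00 there and 0.10 at 2 mM, and those that fell had medians of -1.06 and -0.21. The libraries at 0.2 mM that chose these genes also enter the difference, so these medians are a description.

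The 5 largest differences were all on the falling side. The log2 FC of *FAMT* was -2.56 at low and 1.04 at high supply, where it rose, with CPM means of 13.9 ± 0.963 at 16 and 30.1 ± 10.2 at 25 days (SD, n = 3). *CORI3* had -2.68 and 0.52, *COR413IM1* -3.20 and -0.02, and *COR15A* -3.42 and -0.26. *BAM5*, a beta-amylase gene, did not pass at 0.2 mM, with 15.1, 13.04 and 9.40 at 16 days and 7.51, 7.38 and 4.14 at 25 days, and rose at 2 mM, with means of 5.50 ± 2.65 at 16 and 33.5 ± 26.9 at 25 days (SD, n = 3). *COR15A* at 2 mM stood at 441 ± 25.2 at 16 and 369 ± 42.9 at 25 days (SD, n = 3), between the young and the older plants at 0.2 mM.

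Several gene groups that moved at 0.2 mM had medians nearer to 0 at 2 mM. The median log2 FC at 2 mM was 0.00 for ribosomal and 0.05 for nucleolar proteins, 0.03 for the jasmonate list, -0.32 for the glucosinolate list, -0.21 for the cold group and 0.34, of the other sign, for the salicylic acid list. Other groups moved at both supplies. Of the type-A response regulators 3 of 6 rose at 2 mM (median 0.32), and of the AP2-like repressors 3 of 5 fell (median -0.22). Of the iron genes 5 of 10 rose and 2 fell there, and their median (0.80) was above that at 0.2 mM (0.47). *RPS5B* at 2 mM had 158 ± 20.2 at 16 and 177 ± 17.2 at 25 days (SD, n = 3), and *LOX2* had 1831 ± 215 at 16 and 2388 ± 632 at 25 days (SD, n = 3). *WRKY70*, which fell at 0.2 mM, had 111 ± 4.12 at 16 and 138 ± 9.91 at 25 days (SD, n = 3) at 2 mM (log2 FC 0.31), and *LURP1* rose there (log2 FC 0.96). Other genes passed at both supplies. For *TOE2* the log2 FC were -0.75 and -0.66, *GID1C* -0.83 and -0.83, *LHCB4.3* 1.01 and 1.19 and *AGL24* 0.73 and 0.56, and none of these differences passed the test of the interaction (adjusted *P* of 0.396 to 0.999). Iron genes rose at 2 mM too, and the rise of *FRO3* there (log2 FC 1.96) was the larger by the interaction (adjusted *P* = 0.0405).

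**Figure D5:**
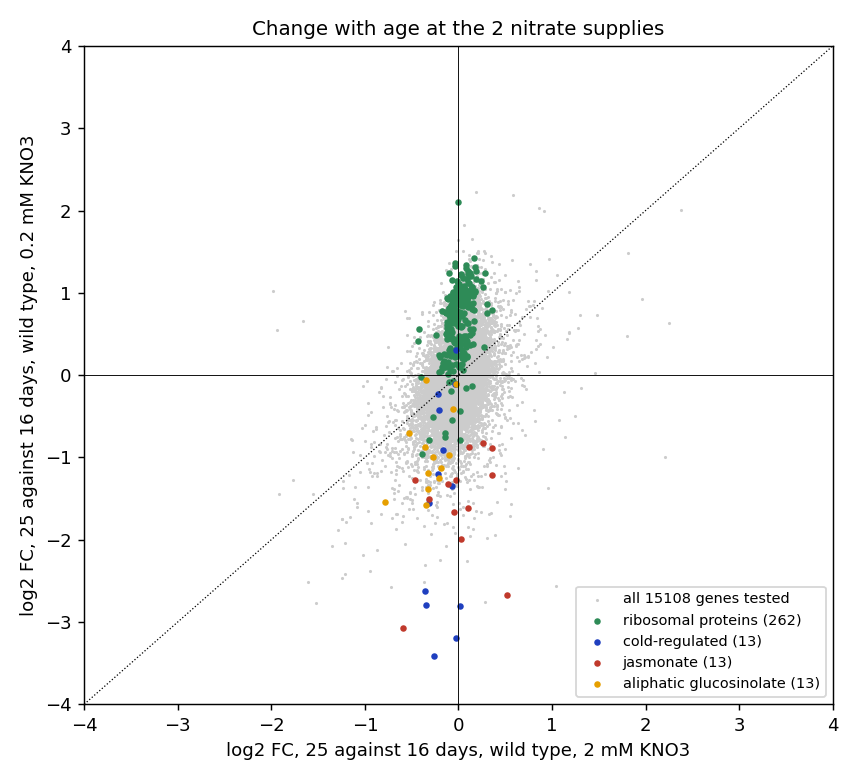
Log2 FC between the ages in wild type, at 0.2 mM KNO3 (vertical) against that at 2 mM KNO3 (horizontal), a point per gene of 15108, with ribosomal protein (green), cold-regulated (dark blue), jasmonate (red) and aliphatic glucosinolate genes (orange) marked and equal change as a dotted line. The marked groups spread along the vertical axis, and their medians at 2 mM lie between -0.32 and 0.03.

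The same age comparison in *nrt1.13* at 0.2 mM, again in other plants, gave 3206 genes that rose (21.2%) and 4447 that fell (29.4%). Of the 422 genes that rose past the FC limit in wild type all 422 were higher in *nrt1.13* as well, 420 of them at an adjusted *P* of at most 0.05, with a median log2 FC of 0.89. Of the 536 that fell 535 were lower, 510 of them at that *P*, with a median of -0.90. The change differed between the genotypes for 7 genes (0.0463%). This count moved from 3 to 23 as single plants were left out, the highest without 25-day wild-type replicate 1.

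Of these 7 genes *AGP17* rose in wild type, and in *nrt1.13* it had 19.5 ± 1.43 at 16 and 22.8 ± 2.33 at 25 days (SD, n = 3). *AT2G47440*, a tetratricopeptide repeat protein gene, had 34.9, 41.5 and 38.04 at 16 days and 67.8, 61.9 and 55.9 at 25 days in wild type (log2 FC 0.70) and -0.24 in *nrt1.13*. *EXO*, a brassinosteroid-responsive growth gene, had 14.8, 20.4 and 15.8 at 16 days and 25.1, 24.5 and 21.9 at 25 days (log2 FC 0.50, against -0.37). *AT3G19680*, of unknown function, had 15.6, 14.9 and 14.6 at 16 days and 16.4, 14.1 and 14.9 at 25 days in wild type and fell in *nrt1.13* (log2 FC -0.93), and *HSFC1*, a heat shock factor gene, fell in wild type (log2 FC -1.04, against -0.16). *EXL5*, related to *EXO*, had a log2 FC of -0.16 in wild type and -0.86 in *nrt1.13*, and *AT1G10020*, like *AT3G19680* a DUF1005 gene, had 0.11 and -0.69.

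Genes that failed the limit of 2 CPM in some library but reached it on average numbered 1062. Of these 175 (16.5%) were higher and 310 (29.2%) lower at 25 days without overlap. The largest rises were of the iron-deficiency bHLH genes *BHLH100*, with 0, 1.87 and 0 at 16 days and 10.2, 7.94 and 6.14 at 25 days, *BHLH39*, with 0, 0 and 0 at 16 days and 1.81, 1.61 and 0.892 at 25 days, and *BHLH38*, with 0.0515, 0.187 and 0 at 16 days and 1.48, 2.23 and 0.787 at 25 days, whose products drive iron uptake. They were joined by *AT1G47395* and *AT1G47400*, not characterized in the reference. Their values at 2 mM went from a mean of 0.0824 to 25.2 in *BHLH100*, from 0.0192 to 5.07 in *BHLH39* and from 0.0942 to 5.86 in *BHLH38*. The largest falls were those of *DIP2*, with 6.88, 7.33 and 6.98 at 16 days and 0.0645, 0 and 0.21 at 25 days, and *KIN1*, a cold-inducible gene like *KIN2*, with 7.75, 6.33 and 7.24 at 16 days and 0.58, 0.496 and 0.236 at 25 days, then *AT5G57760*, with 12.98, 18.2 and 11.7 at 16 days and 1.74, 1.55 and 1.26 at 25 days, *AT3G46650* and *AT1G24147*. These genes were picked among those without overlap, so their exact two-sided *P* of 0.1, the smallest for 3 plants against 3, was fixed by the choice. The mean behind the limit also took in the libraries in which a gene is high.

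Some named genes overlap a gene on the opposite strand in their exons, and whether counting used the strand is not given in the sources used here. The overlap covers 22.6% of exon length in *GASA6*, 29.5% in *COR15B*, 22.2% in *HDA3*, 21.2% in *BCAT4* and 42.6% in *FLC*, and over 90% in *MYC2*, *SPL3*, *HSFC1*, *F3H* and *AMT1;1*. In these genes reads of both partners may be mixed.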

How the data were processed

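Single whole shoots of *Arabidopsis thaliana* were sequenced as stranded polyadenylated libraries on a NextSeq500, with reads mapped once to TAIR10 in CLC Genomics Workbench, and bcl2fastq 2.17.1.14 is named in the submitters' processing notes. The values deposited by the authors are normalized signal values in CPM for 28775 genes, of which 3228 were at 0 in all 24 libraries. The scaling factor and the strand setting of the counting are not given in the sources used here. The CPM summed to 968394 to 1038371 per library, and every value was a whole multiple of that of 1 read (within 0.000168 reads), so that reads could be recovered. All 24 columns matched a sample title.

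Genes with at least 2 CPM in all 24 libraries were kept (15108) and log2(CPM + 0.1) was fitted in limma 3.58.1 (R 4.3.3) with a trended prior, 8 group means and 16 residual degrees of freedom. Adjusted P-values are Benjamini-Hochberg values over all genes tested, with 0.05 as the limit, and an FC of at least 1.8 where stated. Differences by nitrate or genotype are interaction contrasts of the same fit. Genes below the filter were tested by an exact two-sided permutation test. Nothing says that plants of one group came from separate cultures, so P-values measure the spread between single plants. The script was tested on simulated data.

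Named genes were, by rule, the 12 largest changes in each direction without overlap, the members of gene lists, the genes of flowering time and *NRT1.13*, the 5 largest differences by supply and by genotype, and the 5 largest below the filter in each direction. The members and lists were chosen with earlier results of these data known. The groups by product name, the members of them named in the text, the remaining 2 of the 7 genes with a genotype difference, and the site II, telo-box and CCGAC motifs were chosen after values were seen. Gene names and the 250 bases upstream came from RefSeq's TAIR10.1, matched by gene ID, with both strands searched.

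Alternatives were other pseudocounts, filters, scalings and an FC limit of 1.5, limma without trend or on the libraries of the contrast alone, edgeR 4.0.16 and DESeq2 1.42.0 on the recovered reads (100% of values whole), leaving out each plant, and a replicate block. The block in edgeR was added after seeing the data.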

Additional observations from a re-analysis of the deposited data

Results flagged for a closer look

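The change from 16 to 25 days in wild type differed between 0.2 and 2 mM KNO3 for 99 of the genes named above, by the test of the interaction in limma at an adjusted *P* of at most 0.05. All differences are log2 values, the change at 0.2 mM minus that at 2 mM. A negative one means a larger fall or a smaller rise at 0.2 mM, or a fall there against a rise at 2 mM. By the same test the difference was positive for 15.5% and negative for 17.6% of the 15108 genes tested. Some of the named genes were chosen for a large change at 0.2 mM or for this difference itself. The 0.2 mM libraries used in that choice are also part of the difference, so the count of 99 only describes the named genes. In cold-regulated genes, the difference was -3.18 for *COR413IM1*, -3.15 for *COR15A*, -2.82 for *LTI78*, -2.44 for *KIN2*, -2.27 for *COR15B*, -1.27 for *COR314-TM2*, -1.24 for *COR47* and -0.98 for *COR413-PM1*. It was -3.20 for *CORI3*, -2.48 for *AOC1*, -2.02 for *VSP1*, -1.73 for *ARGAH2*, -1.61 for *AOC2*, -1.57 for *LOX2*, -1.25 for *MYC2*, -1.21 for *AOS* and -0.99 for *OPR3* in the jasmonate pathway. For the aliphatic glucosinolate pathway it came to -1.24 for *CYP79F1*, -1.06 for *BCAT4*, -1.05 for *SOT17*, -0.94 for *SOT18*, -0.87 for *MAM1* and -0.86 for *CYP83A1*. Values in ribosomal protein genes were -0.56 for *AT3G14595*, 0.99 for *P40*, 1.128 for *AT5G27850*, 1.19 for *AT3G07110*, 1.25 for *RPS5B*, 1.36 for *AT3G09200*, 1.39 for *RPSAb* and 2.104 for *AT2G40010*. Within nucleolar protein genes it stood at 0.97 for *NOP56*, 1.299 for *AT5G27120* and 1.76 for *FIB2*. In genes of photosystems, antenna and Rubisco, the difference was -1.43 for *LHCB1.4*, -0.77 for *PSAO*, -0.77 for *PSBR*, -0.74 for *PSAK*, -0.69 for *PSAH2*, 0.40 for *RBCS2B*, 0.42 for *RBCS1B*, 0.66 for *RCA* and 0.99 for *LHCB1.1*. It was -1.40 for *PPDK*, -0.69 for *BT1*, -0.67 for *AMT1;1*, -0.64 for *NRT1.7*, -0.39 for *NRT2.7*, 0.30 for *GDH2*, 0.62 for *CLCA*, 0.81 for *LBD39* and 1.00 for *BT2* in genes of nitrate and nitrogen use. For salicylic acid defence it came to -2.33 for *LURP1*, -2.28 for *WRKY70*, -1.21 for *WRKY54* and -0.51 for *NPR1*. Values in chlorophyll breakdown were -0.71 for *PAO*, -0.60 for *PPH*, -0.46 for *ACD2* and -0.42 for *NYC1*. Within starch and trehalose genes it stood at -3.19 for *BAM5*, -0.79 for *SEX1*, -0.57 for *DPE2*, 0.79 for *BAM9* and 0.90 for *TPS11*. In flowering genes, the difference was -0.59 for *TOE3*, -0.58 for *SPL11*, -0.56 for *SPL3* and -0.39 for *SOC1*. It was -0.56 for *EXL5*, 0.33 for *AGP17*, 0.51 for *EXPA10*, 0.52 for *EXL3* and 1.41 for *EXPA1* in cell wall genes. For cell division and the meristem it came to 0.40 for *PCNA1*, 0.51 for *CYCB1;1*, 0.60 for *AUR1*, 0.64 for *STM* and 0.79 for *CYCA1;1*. Values in the clock were -1.47 for *ELF4*, -0.43 for *FKF1* and 0.41 for *GI*. Within cytokinin and gibberellin genes it stood at 0.70 for *ARR6* and 2.04 for *GASA6*. In genes of iron use, the difference was -1.03 for *FRO3*. Genes of no list gave -3.61 for *FAMT*, -3.04 for *AT1G76960*, -1.85 for *AT1G66100*, -1.26 for *THI2.2*, -0.63 for *AT3G19680*, -0.49 for *HSFC1*, 1.09 for *ATSPS4F*, 1.16 for *AT3G21670* and 1.24 for *AT2G27775*. Others gave 1.45 for *HDA3*, 1.51 for *AT3G49320*, 1.53 for *AT5G14580*, 1.61 for *PR4* and 1.65 for *AT3G51870*.

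The change differed between wild type and *nrt1.13* at 0.2 mM for 7 of the named genes. These are all the genes that the test called, and they were named for it, so the count is the one given above. The log2 difference, wild type minus *nrt1.13*, was -0.88 for *HSFC1*, 0.69 for *EXL5*, 0.80 for *AT1G10020*, 0.87 for *EXO*, 0.93 for *AT2G47440*, 0.94 for *AGP17* and 0.94 for *AT3G19680*.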

How the results depend on the processing

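The 958 genes past the FC limit became 1717 (738 higher and 979 lower) without a filter on low values and 2454 (1095 and 1359) at an FC limit of 1.5. Leaving out single plants gave 867 to 1100. In edgeR 964 genes passed and in DESeq2 967. The 5012 genes that differed by nitrate supply numbered 4148 to 5004 with a plant left out. The 7 that differed by genotype were 4 without a filter, 2 with only the libraries of the contrast, 4 without trend and 33 in DESeq2 (22 higher and 11 lower), and 3 to 23 with a plant left out. The share of higher genes among those past the FC limit was 44.1%, and 52.4% under median-ratio scaling, 49.4% under quantile normalization, 42.4% over nuclear genes, 51.9% in edgeR and 51.7% in DESeq2. The median log2 FC over all genes moved by less than 0.1 under each of these. Settings were run gene by gene for 192 genes that passed. These were the genes of largest change in each direction and the members of the fixed gene lists, not all named above. Of the 192 genes, 0 reversed in edgeR, under median-ratio scaling, with a pseudocount of 1 or with a plant left out. Genes named only from the groups by product name, such as *RPS5B*, *NOP56* and *COR47*, were not run in this way. Of the same 192 genes, those no longer called were 5 in edgeR, 5 under median-ratio scaling and 11 to 17 with 1 of the 6 plants left out. Depth limited genes under 2 CPM, of which few reads were counted.

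The deviations of plants with the same number correlated at 0.142, 0.03 and 0.114 between the ages, so the numbers were not taken as pairs, and replicate 2 at 16 days correlated best with replicate 3 at 25 days (0.06). With the replicate block in limma 958 genes passed the FC limit, 5118 differed by nitrate and 6 by genotype. In edgeR with the block, chosen after seeing the data, the counts were 970, 5084 and 7.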

Other observations

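Further genes of protein turnover and organelle expression were grouped by product name after values were seen. Of 40 tested tRNA ligase genes, which charge tRNAs with amino acids, 30 rose and 1 fell (median log2 FC 0.39), with summed CPM of 2571 to 2853 at 16 and 3648 to 3939 at 25 days. Of 34 proteasome subunit genes 22 rose and 2 fell (median 0.21), none past the FC limit. Of 175 pentatricopeptide repeat genes, whose proteins process organelle RNA, 82 rose and 4 fell (median 0.26), with 2807 to 2928 CPM in the young and 3610 to 3750 CPM in the older plants. Of 14 autophagy genes 8 fell and 0 rose in limma (0 without adjustment, 1 in edgeR), with a median of -0.27. Only 5 fell without 16-day replicate 2, without 25-day replicate 1 or under quantile normalization. Over all genes the median was -0.05, with 23.2% higher and 31.2% lower.

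At 2 mM KNO3 the medians of these groups were 0.03 for tRNA ligases, 0.04 for the proteasome, 0.02 for pentatricopeptide repeat proteins and -0.07 for autophagy. Of 10 tested phosphate starvation genes 3 rose and 2 fell, and of 6 CC-type glutaredoxin genes 2 rose and 0 fell (0 also without adjustment and in edgeR).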
